A study of Homo sapiens with 4 samples.

Results

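The genes of coagulation and fibrinolysis examined here are 9 endothelial genes, VWF, SELP, F3, THBD, PROCR, TFPI, TFPI2, PLAT and PLAU. They were chosen with earlier results of these data known. Their rows were found by gene symbol, and each symbol had 1 row among the 58229 genes of the deposited table. RNA was sequenced from CD31+ cells at day 8 of hematopoietic differentiation of H1, a widely used line of human embryonic stem cells. Cells with HAND1 overexpression (HAND1_OE, 2 libraries) were compared with cells without it (Control, 2 libraries), and both groups had passed through the same stepwise differentiation with activin A and BMP4, then VEGF and bFGF. HAND1 is a basic helix-loop-helix transcription factor, and the study asked what its sustained expression does as hemogenic endothelium gives rise to blood progenitors. The vector, its promoter and the number of clones are not given in the sources used here, and the labels do not say whether the 2 libraries of a group came from separate cultures, so p-values measure only the spread between these libraries.

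Endothelial cells line the vessel wall and keep blood fluid while holding the means to start a clot. Tissue factor (F3) starts coagulation together with factor VII, and tissue factor pathway inhibitor (TFPI) blocks that step. Thrombomodulin (THBD) binds thrombin and turns it toward activation of protein C, which the endothelial protein C receptor (PROCR) presents to that complex. Von Willebrand factor (VWF) and P-selectin (SELP) are stored in Weibel-Palade bodies, granules of endothelial cells, and both are also made by megakaryocytes and carried by platelets. Clots are dissolved by plasmin, which tissue-type (PLAT) and urokinase-type (PLAU) plasminogen activators release from plasminogen.

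Values are FPKM, fragment counts scaled by the length of the transcript and the size of the library, so levels of different genes can be set side by side. Libraries summed to between 536299 and 606623 FPKM. Depth, estimated from the smallest steps among low single-exon genes, came to 19600000 and 19300000 fragments in Control and 23300000 and 20300000 in HAND1_OE. HAND1 was at 12.1 and 14.3 FPKM in the Control libraries against 520.5 and 517 FPKM in HAND1_OE. The endothelial marker CDH5, the cadherin of endothelial junctions, was at 261 and 222 FPKM without overexpression and at 257 and 280.2 FPKM with it, and PECAM1, which encodes CD31 itself, at 95.4 and 141 FPKM and at 91.97 and 160.2 FPKM. Neither marker passed the test (CDH5 log2 difference 0.16, 95% interval -0.25 to 0.57; PECAM1 0.06, -0.73 to 0.86). The cells were taken as CD31+, so the level of PECAM1 is tied to that selection. In bulk RNA, fewer cells of a type and less RNA per cell cannot be told apart.

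Sequences before the start sites are shown for PROCR, which fell, and for the inhibitor and the initiator of the tissue factor step, TFPI and F3, which did not pass the test. Each is the 250 bases before the RefSeq start in GRCh38.p14, read 5′ to 3′ on the strand of the gene, and capitals mark CANNTG, the E-box that basic helix-loop-helix factors recognise, and TATAAA, on either strand. PROCR lies at chr20:35171822-35172071 (plus strand), TFPI at chr2:187554436-187554685 (minus strand), inside the span that the table gives for the gene, and F3 at chr1:94541760-94542009 (minus strand). The F3 window runs into the span given for F3, which ends at 94541800, and its TATAAA match lies in that part.
PROCR: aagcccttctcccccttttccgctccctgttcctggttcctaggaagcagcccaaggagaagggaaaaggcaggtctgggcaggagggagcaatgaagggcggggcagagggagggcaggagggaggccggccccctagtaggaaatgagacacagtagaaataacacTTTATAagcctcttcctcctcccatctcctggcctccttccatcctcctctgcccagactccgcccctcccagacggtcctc
TFPI: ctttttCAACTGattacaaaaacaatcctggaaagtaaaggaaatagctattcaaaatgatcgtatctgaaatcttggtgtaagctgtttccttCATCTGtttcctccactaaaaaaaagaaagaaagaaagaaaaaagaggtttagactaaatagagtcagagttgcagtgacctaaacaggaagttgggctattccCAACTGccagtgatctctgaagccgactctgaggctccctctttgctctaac
F3: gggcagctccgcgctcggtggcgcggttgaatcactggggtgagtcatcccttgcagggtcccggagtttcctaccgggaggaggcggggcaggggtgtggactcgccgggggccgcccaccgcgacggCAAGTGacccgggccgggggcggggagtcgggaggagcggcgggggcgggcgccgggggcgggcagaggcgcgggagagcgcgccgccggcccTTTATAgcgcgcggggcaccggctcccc

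The 3 windows differed in these letters. TFPI held 3 matches to CANNTG, of which 1 was also a match to CATCTG, F3 held 1 and PROCR 0. PROCR and F3 each held 1 match to TATAAA and TFPI held 0, and no base lay in both motifs. Of 35116 RefSeq windows of the same length, 61.8% held CANNTG, 12.2% CATCTG and 10.7% TATAAA. RefSeq windows were matched for 6 of the 9 genes, the others being SELP, TFPI2 and PLAU, while VWF, THBD and PLAT had no entry. The windows of SELP and TFPI2 lie partly, and those of PLAU wholly, inside the spans given for these genes. AGATAA, found in 9.17% of all windows, was in none of the windows of these 6 genes. GGAAG, found in 65.1%, had 4 matches in SELP, 3 in PROCR, 3 at 1 of the 2 starts of PLAU, 1 in TFPI and 0 in F3 and TFPI2. These are matches of letters and not sites.

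Levels of the 9 genes spread widely in Control. TFPI was highest at a mean of 372 FPKM, above all but 1.22% of the genes tested, followed by PROCR at 98.7 FPKM. PLAU (32.4 FPKM), VWF (22.99 FPKM), THBD (21.5 FPKM) and TFPI2 (16.2 FPKM) came next, and each neighbouring pair of these 4 overlapped between the Control libraries. PLAT stood at 3.83 FPKM, and F3 (1.66 FPKM) and SELP (1.43 FPKM) were lowest and overlapped. In HAND1_OE the order was TFPI, VWF, PROCR, PLAU, TFPI2, PLAT, THBD, F3 and SELP, so that VWF moved from the fourth place to the second. There PROCR overlapped PLAU, and THBD overlapped both TFPI2 and PLAT.

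**Figure D1:**
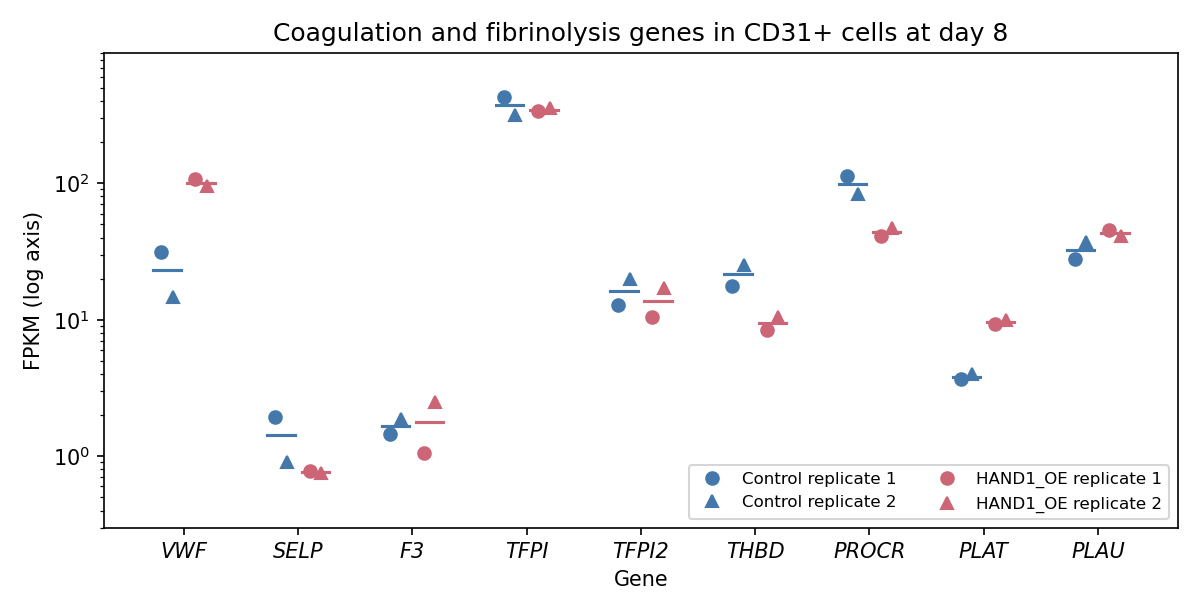
FPKM (log axis) of each of the 9 genes in the 2 Control (blue) and 2 HAND1_OE (red) libraries, circles for replicate 1 and triangles for replicate 2, with a horizontal line at each group mean. VWF and PLAT lie higher and THBD and PROCR lower in both HAND1_OE libraries, whereas the groups overlap for F3, TFPI and TFPI2.

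Of the 9 genes, 8 had at least 1 FPKM in at least 2 libraries and were tested, with SELP left out. At the threshold of 0.05 on the adjusted p of limma, VWF and PLAT were called higher in HAND1_OE and PROCR lower, that is 2 of 8 higher and 1 of 8 lower. Over all 14622 genes tested, 2.04% were called higher and 2.11% lower. The groups did not overlap for 5 of the 8, against 46.3% of all genes tested. The median log2 difference of the 8 was -0.036, beside -0.078 over all genes tested. Differences are in log2(FPKM + 1), HAND1_OE minus Control, which understates the change of low genes, and 2 libraries against 2 cannot give an exact permutation p below 0.333.

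**Figure D2:**
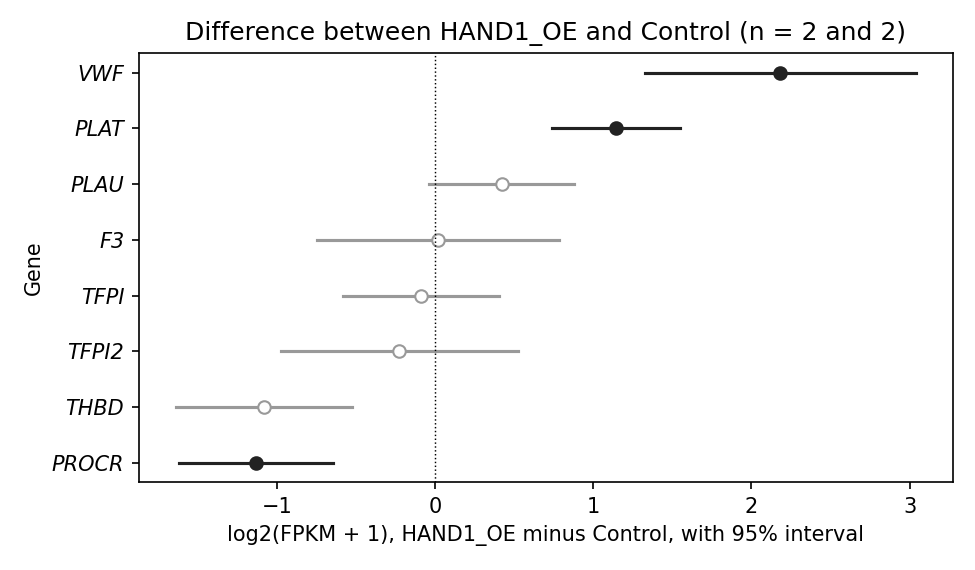
Difference in log2(FPKM + 1) between HAND1_OE and Control for the 8 genes tested (n = 2 and 2), with unadjusted 95% intervals from limma. Filled black points passed the threshold of 0.05 on the adjusted p and open grey points did not, so VWF and PLAT are marked to the right of 0 and PROCR to the left.

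VWF showed the largest difference of the 8 genes tested. It carries platelets to exposed collagen and protects factor VIII in plasma. VWF (ENSG00000110799.13, GRCh38 chromosome 12, 5948874 to 6124770) was at 31.3 and 14.6 FPKM in Control, and the HAND1_OE libraries had 107 and 95.4 FPKM. Both HAND1_OE libraries lay far above both Control libraries, which differed from each other by 2.14-fold, and the ratio of the group means was 4.40. On the log2 scale the difference was 2.18 (standard error 0.34, 95% interval 1.33 to 3.04, limma adjusted p = 0.0338). The call held with any 1 library left out, with adjusted p-values from 0.00819 to 0.0306 and differences from 1.66 to 2.71. It was lost when all genes above 0 were tested (adjusted p = 0.235). The pseudogene VWFP1, a partial copy of VWF, was at or below 0.160 FPKM in all 4 libraries.

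SELP went the other way in value, although its protein shares the granule with VWF. P-selectin captures leukocytes on activated endothelium. SELP (ENSG00000174175.16, chromosome 1, 169588849 to 169630193) was at 1.95 and 0.906 FPKM in the Control libraries against 0.776 and 0.757 FPKM in HAND1_OE, an estimated 48 to 120 fragments in a library if all came from its longest transcript. Both HAND1_OE libraries were below both Control libraries, by little in the case of Control replicate 2. HAND1_OE minus Control gave a log2 difference of -0.43, and with all genes above 0 tested the adjusted p was 0.669. The value rests on the Control libraries, at -0.11 without Control replicate 1 and -0.74 without Control replicate 2. VWF was 16.1 and 16.2 times the level of SELP in the Control libraries and 138 and 126 times in the HAND1_OE libraries.

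Markers of megakaryocytes, the other cells that make VWF and P-selectin, were lower in HAND1_OE. Of 13 such genes, 9 were tested, 8 were called lower and 0 higher, and their summed level was 168 and 209 FPKM in Control and 18.4 and 12.4 FPKM in HAND1_OE. Of the 8, 4 (ITGB3, GP9, PF4 and PLEK) were under 1 FPKM in both HAND1_OE libraries and entered the test only through Control, where they are high, so that part of this count follows from the filter. ITGA2B, the platelet integrin subunit, fell from 92.4 and 115 FPKM to 10.3 and 5.33 FPKM (log2 difference -3.62, adjusted p = 0.00730). NFE2 (-3.76) and ITGB3 (-3.07) also fell, and PPBP, GP6, TUBB1 and TREML1 were under 1 FPKM throughout. The part of the cells with these markers in the values of VWF and of SELP was not tested.

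Initiation of coagulation and its inhibitors showed no call. F3 (ENSG00000117525.13, chromosome 1, 94529225 to 94541800) was at 1.45 and 1.87 FPKM without overexpression and at 1.05 and 2.51 FPKM with it, an estimated 56 to 116 fragments in a library. The HAND1_OE libraries lay on either side of both Control libraries and differed from each other by 2.38-fold. The log2 difference was 0.02 (95% interval -0.75 to 0.78, adjusted p = 0.987), an interval that leaves room for a change in either direction.

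TFPI, the protease inhibitor that binds factor Xa and the complex of tissue factor with factor VIIa, was the most abundant of the 9 genes in every library. TFPI (ENSG00000003436.15, chromosome 2, 187464230 to 187565760) was at 428 and 317 FPKM in Control, and the HAND1_OE libraries had 338 and 354 FPKM. Both HAND1_OE values fell between the Control values. On the log2 scale the difference was -0.09 (95% interval -0.58 to 0.40, adjusted p = 0.887). TFPI held 67.0% and 62.9% of the summed FPKM of the 9 genes in Control and 60.25% and 61.2% in HAND1_OE, and it exceeded F3 by 296-fold and 169-fold in Control and by 322-fold and 141-fold in HAND1_OE.

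TFPI2, a related inhibitor secreted into the extracellular matrix that acts on plasmin and other proteases, was far less abundant. TFPI2 (ENSG00000105825.11, chromosome 7, 93885397 to 93890991) was at 12.8 and 19.7 FPKM in the Control libraries against 10.5 and 17.1 FPKM in HAND1_OE. The groups overlapped, and the spread within each was wider than the gap between their means. HAND1_OE minus Control gave a log2 difference of -0.23 (95% interval -0.98 to 0.52, adjusted p = 0.791). TFPI was 33.5 and 16.1 times the level of TFPI2 in Control and 32.4 and 20.6 times in HAND1_OE.

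Both endothelial members of the protein C pathway had lower values in HAND1_OE, and PROCR passed the test. PROCR (ENSG00000101000.5, chromosome 20, 35172073 to 35216240) was at 114 and 83.7 FPKM without overexpression and at 41.0 and 46.9 FPKM with it. Both HAND1_OE libraries lay below both Control libraries, and the Control mean was 2.25 times the HAND1_OE mean. The part of the lower megakaryocyte, erythroid and monocyte markers in the level of PROCR was not tested. PROCR fell by 1.14 on the log2 scale (standard error 0.20, 95% interval -1.62 to -0.65, limma adjusted p = 0.0419). The call is near the threshold: it was lost without the mean-variance trend (adjusted p = 0.0539), with all genes above 0 tested (0.220), and without Control replicate 1 (0.137), Control replicate 2 (0.0518) or HAND1_OE replicate 1 (0.0869). MMP24OS, on the opposite strand, overlaps the span of PROCR at 28.6 to 40.4 FPKM but shares 0 nt of annotated exon with it, and AL356652.1 shares 218 nt at or below 0.164 FPKM.

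THBD (ENSG00000178726.6, chromosome 20, 23045633 to 23049741) was at 17.6 and 25.3 FPKM in Control, and the HAND1_OE libraries had 8.47 and 10.5 FPKM. Its groups did not overlap either, and the Control mean was 2.26 times the HAND1_OE mean, close to the ratio for PROCR. The log2 difference was -1.08 (standard error 0.22, 95% interval -1.64 to -0.53), but the adjusted p of 0.0665 over all genes tested missed the threshold. PROCR was 6.45 and 3.30 times the level of THBD in Control and 4.85 and 4.45 times in HAND1_OE, so the ratio overlapped between groups. THBD was 12.2 and 13.5 times the level of F3 in Control and 8.05 and 4.20 times in HAND1_OE.

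THBD is also made by monocytes, whose markers were lower in HAND1_OE. Of 6 monocyte and macrophage markers, 4 were tested and 3 were called lower, and their summed level was 81.8 and 61.5 FPKM in Control and 10.5 and 7.81 FPKM in HAND1_OE. AIF1 (log2 difference -3.17), TYROBP (-3.11) and LYZ (-2.36) were the genes that fell, of which LYZ entered the test only through Control, while CD14, the defining monocyte receptor, was at 0.223 to 0.676 FPKM in all libraries. The part of these cells in the level of THBD was not tested.

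Among the plasminogen activators, PLAT rose. PLAT (ENSG00000104368.17, chromosome 8, 42175233 to 42207724) was at 3.65 and 4.01 FPKM in the Control libraries against 9.37 and 9.96 FPKM in HAND1_OE. The libraries of each group lay close together and the groups far apart, with a ratio of means of 2.52. On the log2 scale the difference was 1.14 (standard error 0.16, 95% interval 0.74 to 1.55, limma adjusted p = 0.0264). The difference stayed between 1.09 and 1.20 with any 1 library left out, but the adjusted p was then 0.104 without Control replicate 1, 0.0894 without Control replicate 2, 0.0520 without HAND1_OE replicate 1 and 0.0627 without HAND1_OE replicate 2. It was also lost with all genes above 0 tested (0.159).

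PLAU (ENSG00000122861.15, chromosome 10, 73909177 to 73917497) was at 27.8 and 36.95 FPKM without overexpression and at 45.2 and 41.4 FPKM with it. Its HAND1_OE libraries lay above its Control libraries, but the gap between the nearest libraries was smaller than the difference between the Control libraries. HAND1_OE minus Control gave a log2 difference of 0.42 (95% interval -0.04 to 0.88, adjusted p = 0.329). PLAU remained the more abundant activator, at 7.63 and 9.21 times the level of PLAT in Control and 4.83 and 4.16 times in HAND1_OE. C10orf55 shares 916 nt of exon with PLAU on the opposite strand and was at 0.110 to 0.180 FPKM.

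Ratios to CDH5 set these values beside an endothelial marker of the same library. VWF stood at 0.120 and 0.0660 of CDH5 in Control and at 0.416 and 0.341 in HAND1_OE. PLAT was at 0.0140 and 0.0181 and at 0.0365 and 0.0355, PROCR at 0.436 and 0.377 and at 0.160 and 0.167, and THBD at 0.0676 and 0.114 and at 0.0330 and 0.0376, in the same order. These 4 tested genes were already apart in FPKM, and CDH5 differed little between the groups, so their separation on this ratio adds little. SELP, which was not tested, was also apart in FPKM and on the ratio to CDH5. It was at 0.00748 and 0.00408 of CDH5 in Control and at 0.00302 and 0.0027 in HAND1_OE. Of the 8 genes tested, 5 did not overlap on the ratio to CDH5, against 52.9% of all genes tested, and 5 on the ratio to PECAM1, against 21.6%. PECAM1 encodes the CD31 by which the cells were taken. PLAU, apart in FPKM, overlapped on both ratios, at 0.107 and 0.167 of CDH5 in Control and at 0.176 and 0.148 in HAND1_OE, and SELP overlapped on the ratio to PECAM1. TFPI was at 1.64 and 1.43 of CDH5 in Control and at 1.32 and 1.26 in HAND1_OE, without overlap, whereas its ratios to PECAM1 overlapped. TFPI2 overlapped on the ratio to CDH5 but not to PECAM1, at 0.134 and 0.140 of PECAM1 in Control and 0.114 and 0.107 in HAND1_OE. Of 12 endothelial markers tested, 0 were called higher and 1, the tight junction gene CLDN5, was called lower (log2 difference -2.27). By limma, 3 of the 12 had an unadjusted p under 0.05. EMCN (1.33, adjusted p = 0.0688) and ROBO4 (-1.32, 0.217) moved in opposite directions without a call. The summed level of the 12 was 2286 and 1803 FPKM in Control and 2245 and 1951 FPKM in HAND1_OE.

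**Figure D3:**
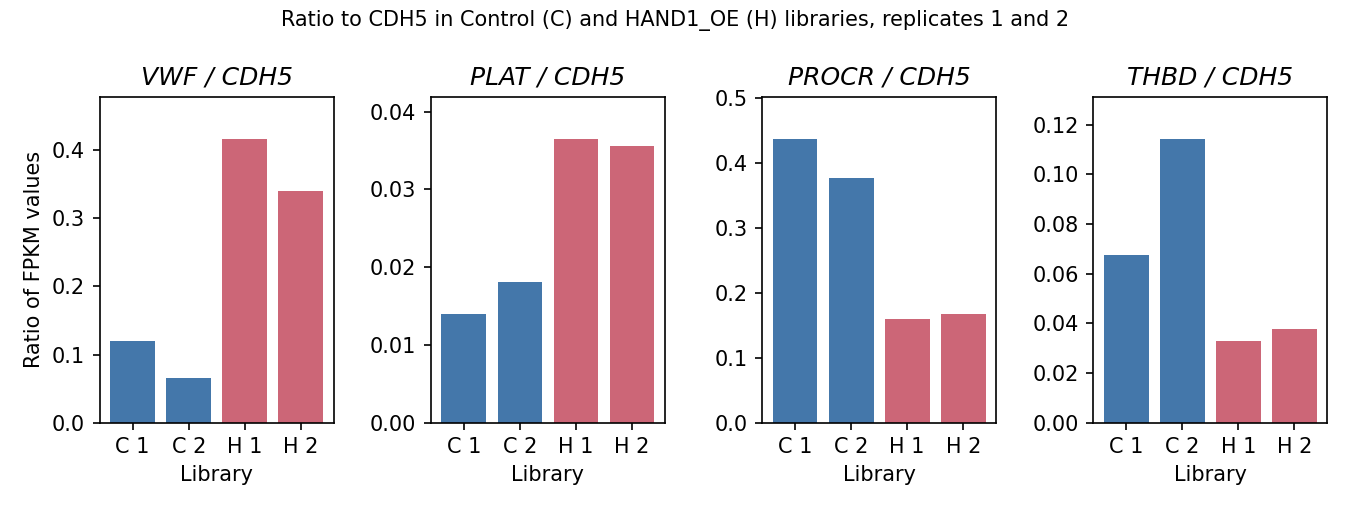
FPKM of VWF, PLAT, PROCR and THBD divided by FPKM of CDH5 in each library (C, Control in blue; H, HAND1_OE in red; replicates 1 and 2), on linear axes from 0 that differ between panels. The HAND1_OE bars are the taller ones for VWF and PLAT and the shorter ones for PROCR and THBD.

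The other genes of the pathway were taken from 7 lists of 64 genes, of which 43 were tested. Of these 43, 3 were called higher and 7 lower, or 6.98% and 16.3%, against 2.04% and 2.11% of all genes tested, and their median log2 difference was 0.044. PTGS1, SELPLG and F8 were below 1 FPKM in both HAND1_OE libraries and so entered the test only through Control. PTGS1 and SELPLG are 2 of the 7 called lower, so part of that count follows from the filter. With 1 FPKM required in every library, 3 were called higher and 5 lower.

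Of 14 tested genes that act with VWF in the granule or outside the cell, 1 was called higher and 4 lower. ANGPT2, a ligand of the endothelial receptor TEK that is stored with VWF, was at 5.92 and 6.63 FPKM in the Control libraries against 59.3 and 52.4 FPKM in HAND1_OE (log2 difference 2.96, standard error 0.16, adjusted p = 0.00379). UNC13D, a priming factor for granule release, fell from 16.6 and 16.5 FPKM to 2.87 and 2.74 FPKM (-2.21, adjusted p = 0.00700). MMRN1, which encodes the factor V binding protein multimerin, fell from 35.5 and 22.8 FPKM to 10.1 and 9.40 FPKM (-1.46). SELPLG, the ligand of P-selectin on leukocytes, fell from 2.56 and 2.62 FPKM to 0.368 and 0.444 FPKM (-1.35), and SYTL4, an effector of RAB27A at granules, from 18.99 and 18.9 FPKM to 9.85 and 7.30 FPKM (-1.07). The granule protein CD63 was at 697 and 567 FPKM and at 741 and 567 FPKM (0.04, adjusted p = 0.953). ADAMTS13, the protease that cleaves VWF, was at 7.94 and 5.32 FPKM without overexpression and at 18.4 and 11.5 FPKM with it, a difference of 1.05 that did not pass (adjusted p = 0.129).

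Of 4 thrombin and protease-activated receptors, all tested, 2 were called lower and 0 higher. F2R, the main thrombin receptor of endothelium, fell from 176 and 158 FPKM to 80.3 and 93.95 FPKM (log2 difference -0.93, adjusted p = 0.0414), and F2RL2, another receptor that thrombin cleaves, from 159 and 158 FPKM to 73.3 and 88.4 FPKM (-0.96, adjusted p = 0.0370). In both genes the 2 Control libraries lay close together and well above HAND1_OE. The remaining receptors of the list, F2RL1 (0.24) and F2RL3 (0.10), did not pass. The part of the lower megakaryocyte markers in the values of F2R and F2RL2 was not tested.

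In the plasminogen list 1 of 8 genes tested was called. LRP1, an endocytic receptor that clears PLAT, rose from 12.7 and 15.5 FPKM to 25.8 and 28.9 FPKM (log2 difference 0.91, adjusted p = 0.0497). A2M, the broad protease inhibitor alpha-2-macroglobulin, was at 30.4 and 63.5 FPKM in Control, and the HAND1_OE libraries had 4.30 and 14.0 FPKM (-2.33, adjusted p = 0.0976). PLAUR, the receptor of PLAU, was at 11.4 and 12.3 FPKM and at 12.7 and 16.9 FPKM (0.29, adjusted p = 0.532). Plasminogen itself (PLG) reached 0.142 FPKM at most.

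Of 15 coagulation factor and fibrinogen genes, 8 reached 1 FPKM in at least 1 library, 6 were tested and limma called 0, with 1 at an unadjusted p under 0.05, and F9, F11 and F13B were listed at 0 in all libraries. The largest differences were those of F12 (log2 difference -0.74, adjusted p = 0.157), FGA (0.67, 0.688) and F8 (-0.55, 0.363). Of 9 coagulation inhibitors and cofactors, 3 were tested and limma called 0, with 2 at an unadjusted p under 0.05, these 3 being SERPINA5 (0.58, adjusted p = 0.237), ANXA5 (0.41, 0.231) and PROS1, the cofactor of activated protein C (-0.25, 0.626). Of 4 genes of the vitamin K cycle and factor secretion, all tested, 1 was called higher and 0 lower. The called gene was GGCX, the carboxylase that matures clotting factors, which rose from 26.0 and 22.8 FPKM to 58.4 and 50.6 FPKM (1.13, adjusted p = 0.0258).

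Of the vessel wall genes that hold platelets in check, 4 were tested. PTGS1, a cyclooxygenase that feeds both prostacyclin and platelet thromboxane, fell from 9.34 and 13.4 FPKM to 0.808 and 0.717 FPKM (log2 difference -2.79, adjusted p = 0.00730). NOS3, the endothelial nitric oxide synthase (0.32, adjusted p = 0.633), ENTPD1 (0.82, 0.202) and NT5E (-1.31, 0.134), which degrade ADP and AMP outside the cell, did not pass. Of the 10 calls over these lists, ANGPT2, UNC13D and PTGS1 held with any 1 library left out, and MMRN1 was lost without Control replicate 1 (adjusted p = 0.0842). F2R and LRP1 were lost whichever library was left out, with adjusted p-values up to 0.164 and 0.209. F2RL2, GGCX and SELPLG passed without HAND1_OE replicate 2 but with no other library left out, and SYTL4 without HAND1_OE replicate 1 alone. SELPLG, UNC13D, PTGS1 and MMRN1 are known in platelets or leukocytes as well, and the part of the lower megakaryocyte and monocyte markers in their values was not tested.

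**Figure D4:**
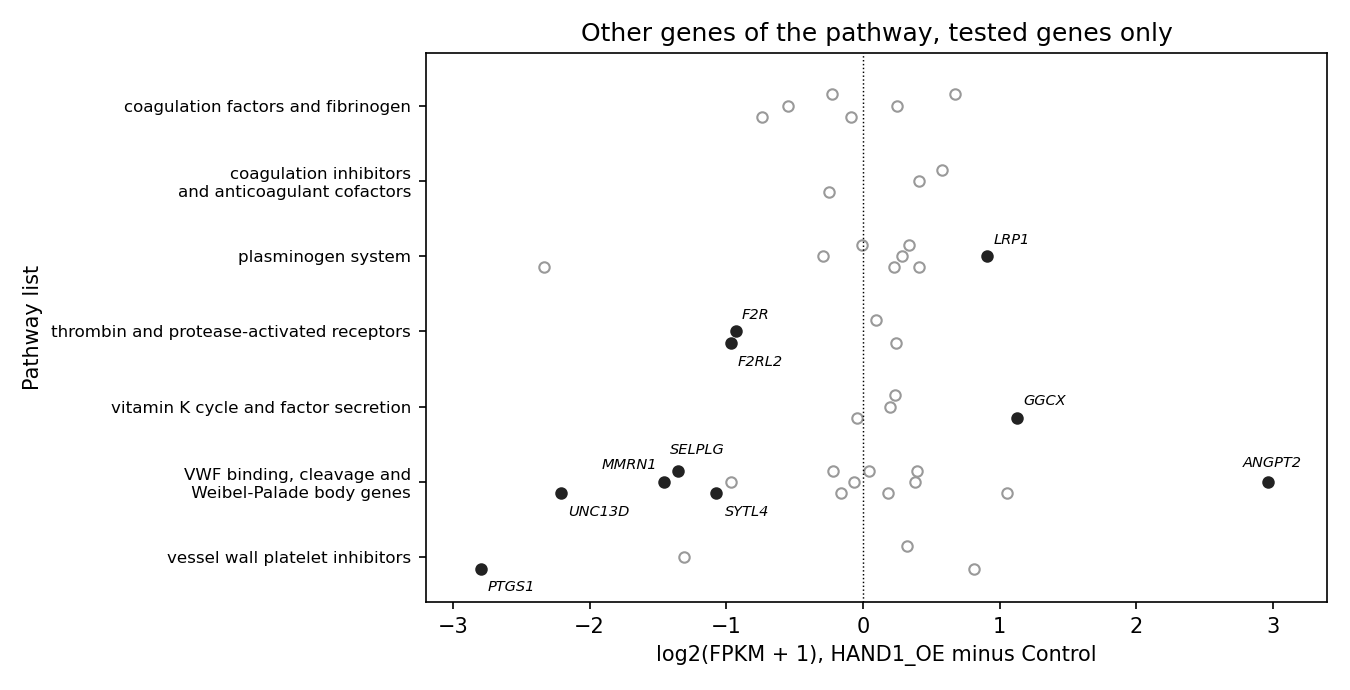
Difference in log2(FPKM + 1), HAND1_OE minus Control, for the 43 tested genes of 7 pathway lists, 1 point a gene, with a small vertical offset for legibility. Filled and named points had an adjusted p under 0.05, 3 of them to the right of 0 and 7 to the left.

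The tested genes whose profile over the 4 libraries was most like that of VWF were C8orf33, PLXDC1 and SAMD5, by the root-mean-square difference of log2(FPKM + 1) after centring each gene. The differences were 0.13, 0.18 and 0.19. C8orf33 was at 36.2 and 22.0 FPKM in the Control libraries against 144 and 134 FPKM in HAND1_OE, with the higher value in replicate 1 of each group, as for VWF. With 4 libraries this likeness is a description.

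Fibroblast and trophoblast markers were examined because such cells also express TFPI2, PLAU and PLAT. Of 8 fibroblast and mesenchyme markers, 7 were tested, and PDGFRB (log2 difference 2.03), POSTN (1.97) and LUM (1.41) were called higher, while COL1A1 (-0.23) and COL1A2 (-0.82) did not pass and DCN was not tested. POSTN was under 1 FPKM in both Control libraries and entered the test only through HAND1_OE. Their summed level was 431 and 349 FPKM in Control and 561 and 501 FPKM in HAND1_OE. Of 8 trophoblast markers, 2 were tested and TFAP2A (1.13) was called higher. The other, GATA3, hardly differed (log2 difference 0.02, adjusted p = 0.967). The 8 markers had a summed level of 33.2 and 31.7 FPKM in Control and 36.7 and 38.9 FPKM in HAND1_OE. Most of this sum was GATA3, whose mean was 27.8 FPKM without overexpression and 28.4 FPKM with it. The 6 untested markers stayed under 1 FPKM in all libraries, among them the placental hormone gene CGA, at or below 0.341 FPKM. Of 7 erythroid markers, 6 were called lower, of which 1 entered the test only through Control, and they summed to 386 and 633 FPKM in Control and 33.5 and 29.4 FPKM in HAND1_OE. The part of these cells in the levels of PLAT and the other genes was not tested.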

How the data were processed

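The 4 libraries (2 Control, 2 HAND1_OE) of day 8 CD31+ cells were made with the TruSeq RNA kit of Illumina and grouped by sample title. The authors deposited 1 value per gene and library without naming the unit, which was taken as FPKM, computed by the authors from mapped reads, since values are not whole and each library has its own total. The submitters' processing notes name BWA, Bowtie, RSEM and hg19, with no versions or roles, yet of 55605 genes matched by versioned ID to GENCODE release 29, 55583 had the same GRCh38 coordinates. Whether reads were assigned by strand is not given in the sources used here. Starts are counted from 1. The 45 rows of Y copies of pseudoautosomal genes and 91 further rows of repeated gene IDs were left out.

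Genes reaching 1 FPKM in 2 or more libraries were tested on log2(FPKM + 1) by limma 3.58.1 under R 4.3.3, using its mean-variance trend, two-sided, with Benjamini-Hochberg adjustment over all 14622 genes. Adjusted p-values are from this test unless another setting is named beside them. Intervals are limma's, unadjusted. The code was tested on simulated data. Depth was estimated as the most common value that 1 fragment would give in single-exon genes of at least 2000 nt with 1 transcript. Fragment numbers derived from it are estimates, and counting intervals were not computed. The 9 genes, the lists and the tests were chosen with earlier results of these data known. Named genes are the 9, HAND1, CDH5, PECAM1, the called or otherwise the 3 most changed genes of each pathway list, up to 3 called genes of each marker list and those at 0, and the 3 profiles nearest to VWF. A gene that this rule also names is not reported here. CD63, ADAMTS13, A2M, PLAUR, PLG, F2RL1, F2RL3, VWFP1, overlapping genes, NOS3, ENTPD1, NT5E and the further markers given were named after their values were seen. Alternatives were another pseudocount, other filters, quantile and median-ratio scaling, no trend, a replicate block and each library left out.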

Additional observations from a re-analysis of the deposited data

How the results depend on the processing

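With 2 libraries a group, small changes of the fit move these counts. As reported, 2 of the 9 genes were called higher and 1 lower, and 3 of the pathway genes higher and 7 lower. When the low-level filter was dropped and 29860 genes entered, limma called 0 genes in either direction across the table, so 0 of the 9 genes and 0 pathway genes were called higher or lower, although 3810 genes and 4 of the 9 (VWF, PLAT, PROCR and THBD) had an unadjusted p under 0.05. Without the trend 0 of the 9 genes were called lower, since PROCR had an adjusted p = 0.0539. With the replicate number as a block 2 were called lower, PROCR and THBD (THBD adjusted p = 0.0190). The labels do not say what a replicate number stands for. The difference between replicates 1 and 2 correlated between the groups over 14622 genes with r = 0.383. With 2 pairs only, this does not settle whether same-numbered libraries were paired, and the main fit left the replicate number out. The spread in the main fit may therefore hold a difference shared by replicates of the same number. The block raised the calls over the whole table from 299 to 597 higher and from 309 to 712 lower. With 1 library left out in turn, in which case a lone library is assumed to vary like the other group, the number of the 9 genes called was 1 higher and 0 to 1 lower, and of pathway genes 1 to 3 higher and 2 to 8 lower. All 10 pathway calls were lost without the low-level filter. SYTL4 was also lost under quantile scaling (adjusted p = 0.0576), median-ratio scaling (0.0536) and no trend (0.0501), LRP1 with a pseudocount of 0.1 (0.0550) and no trend (0.0633), and F2R with no trend (0.0549). With any 1 library left out, the log2 difference of VWF stayed between 1.66 and 2.705.

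Directions of VWF, PLAT, PROCR, THBD, PLAU and SELP held in every alternative run, with VWF between 1.66 and 2.71, PLAT between 1.09 and 1.31, PROCR between -1.35 and -0.92 and THBD between -1.33 and -0.83. Those of F3, TFPI and TFPI2 did not. F3 was at -0.012 with a pseudocount of 0.1 and between -0.37 and 0.40 with a library left out. TFPI was at 0.0047 after median-ratio scaling, which moves the median of all genes from -0.078 to 0.002, and between -0.30 and 0.13 with a library left out. TFPI2 ranged from -0.56 to 0.10 with a library left out. Count-based alternatives do not apply to FPKM and were left out. Low levels limit F3 and SELP most.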

Other observations

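Fibrinogen genes differed widely between the HAND1_OE libraries and less widely between the Control libraries, with replicate 2 the higher in both groups. FGB, the beta chain, was at 6.34 and 12.7 FPKM without overexpression and at 4.45 and 25.0 FPKM with it. FGA was at 1.74 and 3.52 FPKM in Control, and the HAND1_OE libraries had 1.92 and 9.74 FPKM, and FGG at 0.394 and 0.760 FPKM and at 0.258 and 3.62 FPKM. In all 3 genes HAND1_OE replicate 2 held the highest value. F10, which encodes factor X, was at 1.84 and 2.65 FPKM in the Control libraries against 0.724 and 3.41 FPKM in HAND1_OE, again highest in HAND1_OE replicate 2, the library in which F3 was highest as well.

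SELE, the selectin that endothelium makes on activation, was at 25.6 and 31.4 FPKM without overexpression and at 9.04 and 21.6 FPKM with it (log2 difference -0.96, limma adjusted p = 0.285), well above SELP in every library.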
